A study of Mus musculus with 71 samples.

Results

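The 6 probes described here each gave a lower level in the cerebellum of Csbm/m mice than of wild-type (WT) mice on all 4 diets of the study. They are 6 of the 25697 probes of an Illumina MouseRef-8 v2 bead array, and they belong to Entpd4 (ILMN_2589312), Stk25 (ILMN_2598239), Tmem254a (ILMN_2693858), Plac9a (ILMN_2710159), Thap4 (ILMN_2773540) and Sncg (ILMN_2939277). A second probe of Sncg, described below, had higher means in Csb on the diets, so a lower Sncg transcript is not established. The members were chosen by their genotype differences in the diet arm, and the probe of Tmem254a also by its difference after saline at both ages. Those values are therefore given as a description, as are comparisons of diets within a genotype, which use the same arrays. Tests are kept for comparisons that took no part in the choice.

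Total RNA of the cerebellum of male C57BL/6 mice was read on 71 arrays in 16 groups. Csbm/m mice, written Csb below, are mutant for Csb, and the labels do not describe the mutant allele further. In the diet arm, mice were fed for 8 months from 4 months of age and were 1 year old at collection. Mice on a standard diet (SD) gave 6 Csb and 4 WT arrays, a high-fat diet with 60% of calories from fat (HFD) gave 7 and 4, SD at 40% caloric restriction (CR) gave 6 and 4, and SD with 100 mg resveratrol per kg of chow (Resv) gave 6 and 5. The injection arm was kept on house chow, and its mice received nicotinamide riboside (NR, 500 mg per kg per day), a precursor of NAD+, or saline by daily injection for 1 week. At 4 months (young) there were 3 Csb and 4 WT arrays for saline and as many for NR. At 18 months (old) there were 3 of each genotype for saline, and 4 Csb and 5 WT arrays for NR. The labels number the replicates but do not state separate animals. The p-values therefore describe the spread among these arrays, and part of it may be technical.

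CSB, encoded by Ercc6, is a DNA-dependent ATPase that acts where RNA polymerase stalls at DNA damage and starts transcription-coupled repair. Its loss causes Cockayne syndrome in humans, a disorder of growth failure and progressive neurological decline in which the cerebellum is among the affected regions. No probe named Ercc6 is in the annotation at hand, so the targeted gene was not checked here. The 6 genes were grouped by their values and not by a pathway. Entpd4 encodes a nucleoside diphosphatase of the Golgi and lysosomal compartments, and Stk25 a kinase of the STE20 family that acts at the Golgi and in neuronal polarity. Thap4 encodes a protein with a THAP zinc finger and a haem-binding domain, Sncg encodes gamma-synuclein, a neuronal relative of alpha-synuclein, and Plac9a a small protein predicted to be secreted. Tmem254a encodes a transmembrane protein.

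The chromosomes of the members are a feature that the choice did not use. Entpd4, Tmem254a, Plac9a and Sncg lie on chromosome 14, as does Ercc6, and Stk25 and Thap4 lie on chromosome 1. Chromosome 14 holds 473 of the 13984 probes of the diet arm that could be placed in RefSeq (3.38%), and chromosome 1 holds 739 (5.28%). Plac9a and Tmem254a are next to each other, and 1 protein-coding gene, Bok, lies between Stk25 and Thap4. Between Ercc6 and Sncg there are 26 protein-coding genes, between Ercc6 and Tmem254a 74, and between Ercc6 and Entpd4 442. Plac9a and Tmem254a are also part of a repeated segment: RefSeq lists Plac9b, Tmem254b and Tmem254c nearby, with 7 protein-coding genes between Plac9a and Plac9b. The windows of 250 bases before to 50 bases after the start of these 2 members are shown because they are shared with the copies, and capitals mark the bases after the start. They come from RefSeq on the minus strand of GRCm38.p6, at chr14:25927623-25927922 for Tmem254a and chr14:25902844-25903143 for Plac9a.
Tmem254a: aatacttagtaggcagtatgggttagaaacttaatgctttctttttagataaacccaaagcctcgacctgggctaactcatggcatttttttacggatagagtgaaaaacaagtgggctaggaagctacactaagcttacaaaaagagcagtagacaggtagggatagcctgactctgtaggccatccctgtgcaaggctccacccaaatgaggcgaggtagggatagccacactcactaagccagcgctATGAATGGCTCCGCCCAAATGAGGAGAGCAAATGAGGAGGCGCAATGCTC
Plac9a: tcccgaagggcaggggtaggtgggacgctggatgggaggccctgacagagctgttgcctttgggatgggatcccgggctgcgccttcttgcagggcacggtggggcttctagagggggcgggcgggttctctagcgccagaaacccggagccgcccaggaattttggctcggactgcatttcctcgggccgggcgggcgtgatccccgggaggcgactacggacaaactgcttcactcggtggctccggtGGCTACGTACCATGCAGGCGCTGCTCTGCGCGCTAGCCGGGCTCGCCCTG
All 300 bases of the Tmem254a window were identical in a window of Tmem254c. With an offset of 16 bases, all 284 overlapping bases were identical in a window of Tmem254b. With an offset of 78 bases, all 222 overlapping bases of the Plac9a window were identical in that of Plac9b. Entpd4 likewise has a copy, Entpd4b, with 3 protein-coding genes between them. Probe sequences were not used here, so levels given for these 3 genes may include their copies.

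On each array 48.6% to 58.0% of the probes were detected in the diet arm and 46.3% to 52.1% in the injection arm. The median correlation of an array with the others of its group was 0.949 to 0.990 in the diet arm and 0.963 to 0.990 in the injection arm, and the number of arrays limits the precision. The median intensity of undetected probes, a measure of background, was 73.3 to 98.9 on the Csb diet arrays and 62.4 to 76.5 on the WT diet arrays. In the injection arm it was 60.1 to 73.5 on Csb arrays and 57.6 to 73.2 on WT arrays, so background moved with genotype in the diet arm and overlapped in the injection arm. Of the Purkinje cell markers, the probes of Pcp2 had mean levels in the diet arm of 13.34 and 6.55 (log2 normalized intensity) and that of Ppp1r17 9.39, and Calb1 was not kept. Of the granule neuron markers, Cbln1 stood at 13.89, Zic1 at 13.30, Gabra6 at 9.88 and Neurod1 at 9.79, and Cbln3 was not kept. Some markers differed between the genotypes in the diet arm. Of 5 microglia probes 2 were called higher in Csb on SD, 3 on HFD and 3 on Resv, and of 7 probes of Bergmann glia and astrocytes 2 on HFD and 2 on Resv. Of 10 oligodendrocyte probes 2 were higher on Resv and 1 lower on SD, and of 4 endothelial probes 1 was higher and 1 lower on SD and 1 lower on HFD. Of 3 Purkinje cell probes 1, the dimmer of Pcp2, was lower on HFD and on Resv, of 6 choroid plexus probes 1 was lower on SD, and of 4 granule neuron probes 0 were called. On CR 0 marker probes were called, where few probes of any kind were (0.168% lower), yet list means differed. In Csb CR and WT CR the granule neuron probes had means of 11.22 and 12.34, and the choroid plexus probes 8.29 and 9.73. The Purkinje cell probes had 9.39 and 10.12. Other lists went the other way, such as microglia at 8.50 and 8.27. The part of these cells in the differences below was not tested. Less RNA per cell and fewer cells of a type cannot be told apart in RNA of a tissue. One array stood apart: replicate 2 of the young Csb NR group was near WT for Entpd4, Stk25 and Thap4. It was singled out by these member values, and its median correlation with the others of its group was 0.978. Results that rest on it are given with and without it, and those without it are a description.

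Tmem254a separated the genotypes on every array of both arms, and it was chosen on the diet and saline arrays among them. In neither arm was the share of all probes without overlap counted, so overlap is described here and below for the members alone. Levels are given as log2 of the normalized intensity, and each arm was normalized on its own. On SD the 6 Csb arrays stood at 8.51, 8.07, 8.96, 8.15, 8.14 and 7.98, and the WT arrays at 10.37, 10.27, 9.97 and 10.11 (WT HFD: 9.76, 9.77, 10.22 and 9.74). Over the 4 diets the Csb arrays ranged from 7.81 to 8.96 and the WT arrays from 9.59 to 10.37, with no overlap. On that diet Csb had a mean of 8.30 ± 0.37 (SD, n = 6) and WT one of 10.18 ± 0.17 (SD, n = 4), a log2 difference of -1.88 (SE 0.17). It was -1.60 (SE 0.16) on HFD, -1.69 (SE 0.17) on CR and -1.43 (SE 0.16) on Resv, which is 2.69- to 3.68-fold lower.

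Plac9a, the neighbour of Tmem254a, was not detected on any of the 25 Csb diet arrays and was detected on all 17 WT diet arrays. On SD the WT arrays stood at 6.97, 7.11, 6.51 and 6.96, and the Csb arrays, not well above background, at 5.08, 5.82, 5.16, 5.35, 5.03 and 5.49. No Csb diet array (highest 5.97) reached the lowest WT diet array (6.39). The fitted log2 differences were -1.56 on SD, -1.33 on HFD, -1.42 on CR and -1.88 on Resv, and their size is not exact because of the undetected arrays. Against the lowest detected level of each Csb array, Plac9a was at least 1.70-fold lower on SD, at least 1.58-fold on HFD, at least 1.61-fold on CR and at least 1.85-fold on Resv.

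Stk25 and Thap4, the chromosome 1 members, also had no overlap between the genotypes in the diet arm. Thap4 stood at 8.64, 8.58, 8.52, 8.62, 8.39 and 8.30 on the Csb SD arrays and at 9.92, 10.15, 9.77 and 10.001 on the WT SD arrays. Its Csb diet arrays ranged from 8.29 to 9.16 and its WT diet arrays from 9.74 to 10.17. The log2 difference was -1.45 (SE 0.12) on SD, -1.03 (SE 0.12) on HFD, -1.27 (SE 0.12) on CR and -1.17 (SE 0.12) on Resv. Stk25 stood at 9.01, 9.07, 8.21, 9.66, 9.11 and 8.68 on the Csb SD arrays and at 10.71, 10.05, 10.16 and 10.22 on the WT SD arrays. The highest Csb diet array, at 9.66, and the lowest WT diet array, at 9.85, were the closest pair. Its log2 difference was -1.33 (SE 0.18) on SD, -0.70 (SE 0.17) on HFD, -0.84 (SE 0.18) on CR and -0.86 (SE 0.17) on Resv. With the background of each array as a covariate these were -1.10, -0.37, -0.52 and -0.62, and called on SD alone.

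Entpd4 had the smallest of the differences when averaged over the diets. Its Csb SD arrays stood at 11.87, 12.01, 12.10, 11.95, 11.94 and 12.12 and its WT SD arrays at 12.76, 12.62, 12.51 and 12.76. Over all diets the Csb arrays ended at 12.13 and the WT arrays began at 12.39. The log2 difference was -0.66 (SE 0.10) on SD, -0.90 (SE 0.10) on HFD, -0.62 (SE 0.10) on CR and -0.96 (SE 0.09) on Resv, or 1.54- to 1.95-fold. With the background of each array as a covariate these were -0.73, -0.999, -0.71 and -1.03, and the call on CR was lost (adjusted p = 0.0737 by limma).

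Sncg, as read by its member probe, had the largest of the differences averaged over the diets, and the genotypes overlapped. On SD its Csb arrays stood at 6.88, 6.54, 8.74, 5.43, 6.76 and 6.80 and its WT arrays at 7.93, 9.71, 9.09 and 9.49. The genotypes overlapped on SD and on HFD, where the 4 WT arrays ran from 6.54 to 8.75 and the 7 Csb arrays from 5.54 to 7.17. They did not overlap on CR or Resv. The log2 difference was -2.20 (SE 0.46) on SD, -1.50 (SE 0.45) on HFD, -1.97 (SE 0.46) on CR and -1.83 (SE 0.44) on Resv. Of the Csb diet arrays 21 of 25 detected it, with 5 of 6 on SD and 4 of 7 on HFD, where the size is not exact. With the background of each array as a covariate the differences were -2.99, -2.64, -3.09 and -2.67. The calls on HFD (adjusted p = 0.0662 by limma) and CR (adjusted p = 0.0746) were then lost.

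**Figure D1:**
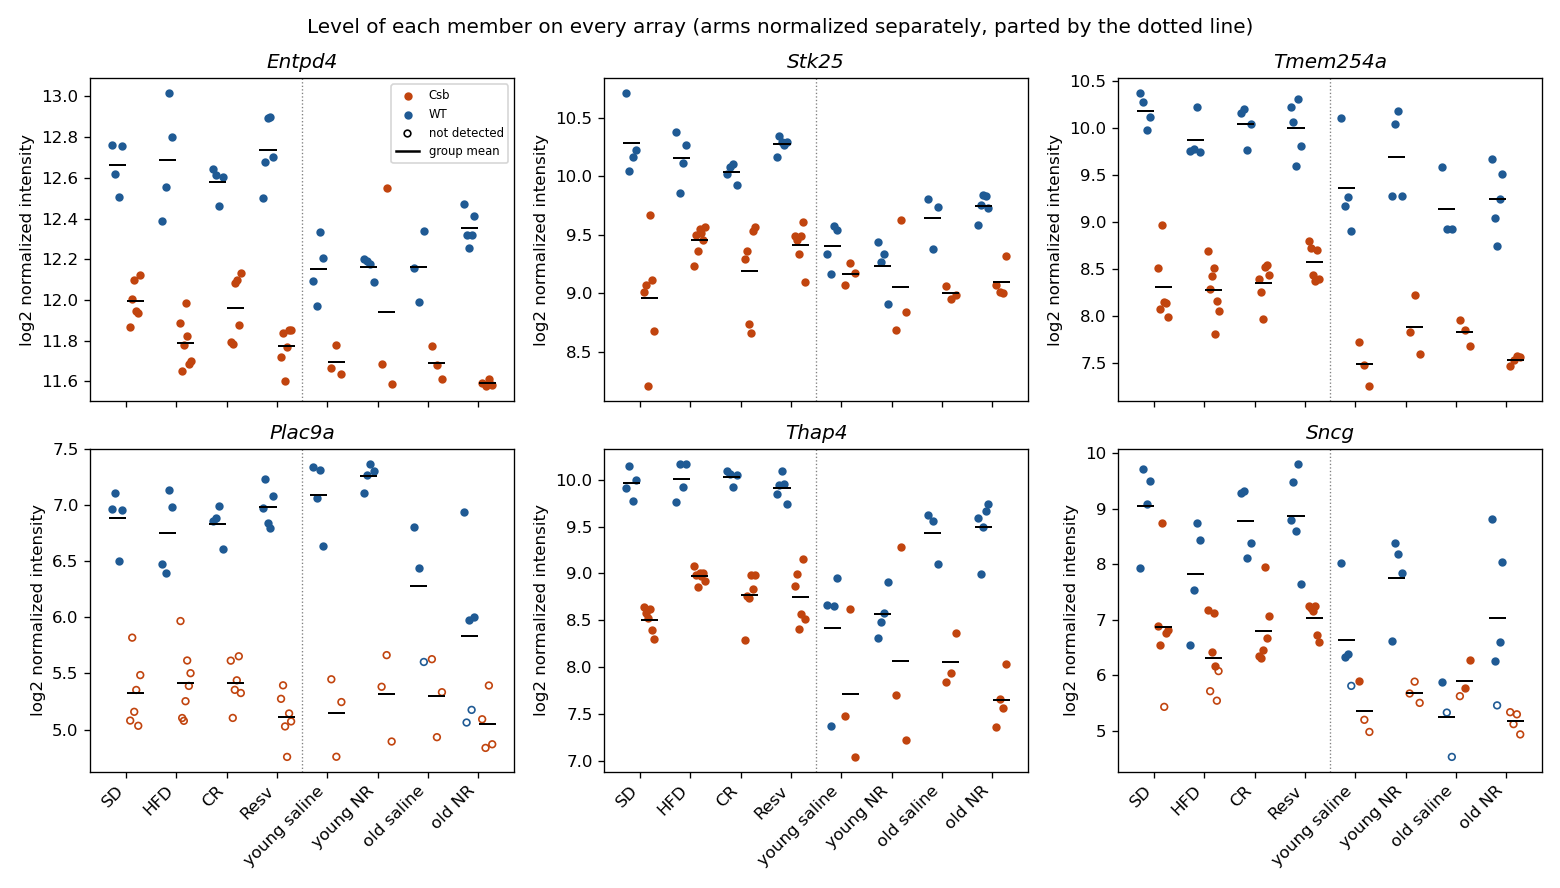
Level of each of the 6 members on every array, as log2 normalized intensity, by diet (left of the dotted line) and by age and injection (right), with WT in blue, Csb in red, open circles for arrays that did not detect the probe and bars for group means. The 17 WT and 25 Csb diet arrays of Tmem254a, Plac9a, Thap4, Stk25 and Entpd4 do not overlap, and those of Sncg do. The choice used these diet values, and the share of all probes without overlap was not counted.

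The background of such calls in the diet arm is given beside the members only for reference, since the choice used them. With an adjusted p under 0.05 in limma as the call, 7.25% of 14883 tested probes were lower in Csb on SD, 3.68% on HFD, 0.168% on CR and 8.96% on Resv. Without single arrays these shares ran from 3.13% to 9.8% on SD, 0.999% to 5.76% on HFD, 0.0595% to 0.256% on CR and 5.24% to 10.4% on Resv, the lowest without WT SD replicate 4, WT HFD replicate 1, WT CR replicate 2 and WT Resv replicate 3. On all 4 diets 7 probes were lower (0.047%): the 6 members and a probe of Ncoa4, a receptor for the autophagy of ferritin, which is also on chromosome 14 with 6 protein-coding genes between it and Ercc6. Sncg was nearest to the threshold from inside, with a highest adjusted p over the diets of 0.0451, followed by Stk25 at 0.0171, both on CR. Just outside were probes of Zfp763 (highest adjusted p 0.0647, log2 difference -0.40) and Lancl1 (0.0672, log2 difference -0.21), both on HFD. The shares lower in Csb were 1.34% on SD, 0.309% on HFD, 0.0403% on CR and 1.42% on Resv with the background of each array as a covariate. With that covariate, with the array's highest intensity as a covariate, or with the compared groups alone, 3 of the 6 members were called on all diets. Each time these were Tmem254a, Plac9a and Thap4.

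The NR arrays of the injection arm share no array with the diet arm and took no part in the choice of the 6 members. They address whether the difference is also seen in other arrays, at other ages and on another chow. Averaged over young and old NR mice, all 6 members had a lower fitted level in Csb, and 4 of 6 were called lower, or 3 of 5 without Plac9a, when 7 of 13948 tested probes (0.0502%) were. The median log2 difference was -1.27 over the 6 members as fitted and -0.0041 over all tested probes. Over the members it was -1.005 with the Csb arrays of Plac9a and Sncg at no less than their lowest detected level. Both member medians include Plac9a, and none was taken without it, so they are a description.

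Tmem254a was the clearest of them. After NR its Csb arrays stood at 7.83, 8.22 and 7.60 in young and 7.47, 7.54, 7.57 and 7.57 in old mice, and its WT arrays at 9.27, 10.04, 10.17 and 9.28 in young and 9.67, 9.04, 8.74, 9.24 and 9.51 in old mice. No Csb array reached a WT array. The averaged log2 difference was -1.75 (SE 0.17, adjusted p = 1.1e-06 by limma), and single comparisons gave -1.80 in young (adjusted p = 0.00305) and -1.70 in old mice (adjusted p = 0.000216). Of the 29 fits that each left out an array of the injection arm, the one without replicate 3 of young Csb NR raised the adjusted p in young mice past the threshold, to 0.0974.

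Plac9a was not detected on any of the 7 Csb NR arrays. In the injection arm it passed the filter on dim probes through WT arrays alone, which favoured a difference, so its place in a count of calls is no support. The young WT NR arrays stood at 7.11, 7.27, 7.37 and 7.31 and all detected it, while the old WT NR arrays stood at 6.94, 5.06, 5.97, 5.18 and 6.00 and 3 of 5 detected it. In young mice the groups were apart, and in old mice the 2 undetected WT arrays lay among the Csb arrays (4.84 to 5.39). In young mice Plac9a was at least 2.87-fold lower in Csb (adjusted p = 0.0174 by limma). That call was lost when replicate 1 or 3 of young Csb NR or replicate 2, 3 or 4 of young WT NR was left out, with adjusted p values up to 0.322. In old mice the same measure gave 1.11-fold (adjusted p = 0.212 by limma), which is no lower bound because 2 WT arrays were undetected too. The limma adjusted p averaged over ages was 0.00309.

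Entpd4 showed the array that stood apart. Its Csb NR arrays stood at 11.68, 12.55 and 11.59 in young and 11.59, 11.58, 11.61 and 11.58 in old mice, and its WT NR arrays at 12.20, 12.19, 12.18 and 12.09 in young and 12.47, 12.32, 12.26, 12.32 and 12.41 in old mice. Replicate 2 of young Csb NR, at 12.55, was above every WT NR array, and the other Csb arrays were below all of them. The averaged log2 difference was -0.49 (SE 0.10, adjusted p = 0.0437 by limma), and without that array -0.65 (SE 0.08, adjusted p = 1.22e-05). The call was lost in 25 of 29 fits that each left out 1 array, with a log2 difference of -0.65 to -0.41 in all of them. In old mice alone the difference was -0.77 (SE 0.13, adjusted p = 0.0111), a call lost without replicate 1 or 2 of old Csb NR (adjusted p up to 0.0604).

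Thap4 and Stk25 behaved likewise on that array. In young NR mice Thap4 stood at 7.70, 9.28 and 7.22 in Csb and at 8.31, 8.48, 8.58 and 8.91 in WT. On the old NR arrays it stood at 7.37, 7.65, 7.56 and 8.04 in Csb and at 9.59, 8.998, 9.50, 9.66 and 9.74 in WT, with no overlap. Its averaged log2 difference was -1.17 (SE 0.26, adjusted p = 0.0779) with replicate 2 of young Csb NR and -1.48 (SE 0.23, adjusted p = 0.000808) without it. In old mice it was -1.84 (SE 0.34, adjusted p = 0.0201), a call lost in 6 of 29 fits that each left out 1 array: replicates 1, 2 and 3 of old Csb NR and 3, 4 and 5 of old WT NR (adjusted p up to 0.164).

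For Stk25 the young NR arrays stood at 8.69, 9.62 and 8.84 in Csb and at 9.44, 9.26, 9.33 and 8.91 in WT, and replicate 2 of Csb was the highest of all. In old mice the Csb arrays stood at 9.07, 9.01, 8.999 and 9.31 and the WT arrays at 9.58, 9.75, 9.84, 9.83 and 9.73, again apart. The averaged log2 difference was -0.42 (SE 0.11, adjusted p = 0.376 by limma) with replicate 2 of young Csb NR and -0.56 (SE 0.10, adjusted p = 0.0024) without it. In old NR mice it was -0.65 (SE 0.15, adjusted p = 0.119).

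The member probe of Sncg was detected on 0 of 7 Csb NR arrays and on 8 of 9 WT NR arrays. The young WT NR arrays stood at 6.61, 8.38, 8.18 and 7.84 and the old ones at 8.80, 6.26, 5.45, 6.59 and 8.03, while the Csb arrays lay between 4.93 and 5.88. The groups did not overlap within either age. With Csb arrays at no less than their lowest detected level, the mean of this probe was 4.01-fold lower in young and 2.56-fold lower in old Csb NR mice. These folds leave out the spread among arrays, and the limma adjusted p values were 0.961 and 0.161. Averaged over ages the limma adjusted p was 0.0293. This call was lost in 10 of 29 fits that each left out 1 array, namely each of the 4 old Csb NR arrays, replicate 5 of old WT NR, replicates 1 and 3 of young Csb NR, and replicates 2, 3 and 4 of young WT NR (adjusted p up to 0.164). Without replicate 2 of young Csb NR all 6 members were called in the averaged comparison. That array was singled out by its member values, so this count is no support. Without any single one of those 10 arrays 2 of 6 were called.

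By age, 2 of 6 members were called lower in young Csb NR mice, Tmem254a and Plac9a (background 0.0143%), or 1 of 5 without Plac9a. In old Csb NR mice 3 of 6 were, Entpd4, Tmem254a and Thap4 (background 0.043%). That background was 1.56% without old WT NR replicate 1 and 3.2% with array weights. Averaged over ages after NR, it ran from 0.0211% to 0.0843% without single arrays and was 0.946% with array weights. Whether the genotype difference changes with age was fitted as an interaction, which called 0 of 6 members after NR (background 0%), with 4 of 6 at an unadjusted p under 0.05 (9.34% of all probes).

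After saline, Tmem254a was used for the choice and the other 5 members were not. Tmem254a had a log2 difference of -1.59 (SE 0.19) averaged over ages, given as a description. Of the 5 others 2 were called lower in Csb in that comparison, or 1 of 4 without Plac9a, where 0.0574% of all probes were. They were Entpd4, with a log2 difference of -0.47 (SE 0.11, adjusted p = 0.0398 by limma), and Plac9a (adjusted p = 0.00116), whose folds by age are given below. Thap4 was at -1.04 (SE 0.28, adjusted p = 0.0937), Stk25 at -0.44 (SE 0.12, adjusted p = 0.122) and Sncg at -0.32 (SE 0.41, adjusted p = 0.803). Without single arrays the difference of Sncg ran from -0.50 to -0.09. Leaving out replicate 2 of young Csb NR, which is in none of these groups but enters the normalization, the choice of probes tested and the error estimate, gave calls for 4 of the 5 members not chosen on saline, Plac9a among them. That array was singled out by its member values, so these calls are a description. The call of Entpd4 with all arrays was lost in 17 of 29 fits that each left out 1 array.

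Plac9a was again undetected on all 6 Csb saline arrays, whereas the young WT saline arrays stood at 7.34, 7.07, 7.31 and 6.64 and the old ones at 6.81, 6.44 and 5.60. Since it passed the filter through WT arrays alone, its calls after saline are no support either. The 5.60 of old WT saline replicate 3 was not detected and lay inside the Csb range of 4.76 to 5.63. In young mice Plac9a was at least 2.44-fold lower (adjusted p = 0.00962 by limma), a call lost without replicate 2 or 3 of young Csb saline (adjusted p up to 0.17). In old mice the same measure gave 1.53-fold (adjusted p = 0.282 by limma), which is no lower bound because only 2 of 3 WT arrays were detected. Of the 5 members not chosen on saline, 1 was called in young saline mice, Plac9a (background 0.0215%), or 0 of 4 without it. In old saline mice 0 were (background 0.0287%), where the 5 had limma adjusted p values of 0.188 to 0.681.

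Thap4 was split among the young arrays. Its young Csb saline arrays stood at 7.48, 8.62 and 7.04 and its young WT saline arrays at 8.67, 7.37, 8.66 and 8.95. Replicate 2 was high in the first group and low in the second, and the log2 difference was -0.70 (SE 0.38). It was -1.15 without that Csb array, -1.04 without that WT array and -0.36 without Csb replicate 3. In old saline mice the groups were apart, at 7.84, 7.94 and 8.37 against 9.63, 9.56 and 9.10. The interaction of genotype and age after saline called 0 of 6 members (background 0.0358%), with 1 of 6 at an unadjusted p under 0.05 (2.22% of all probes).

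**Figure D2:**
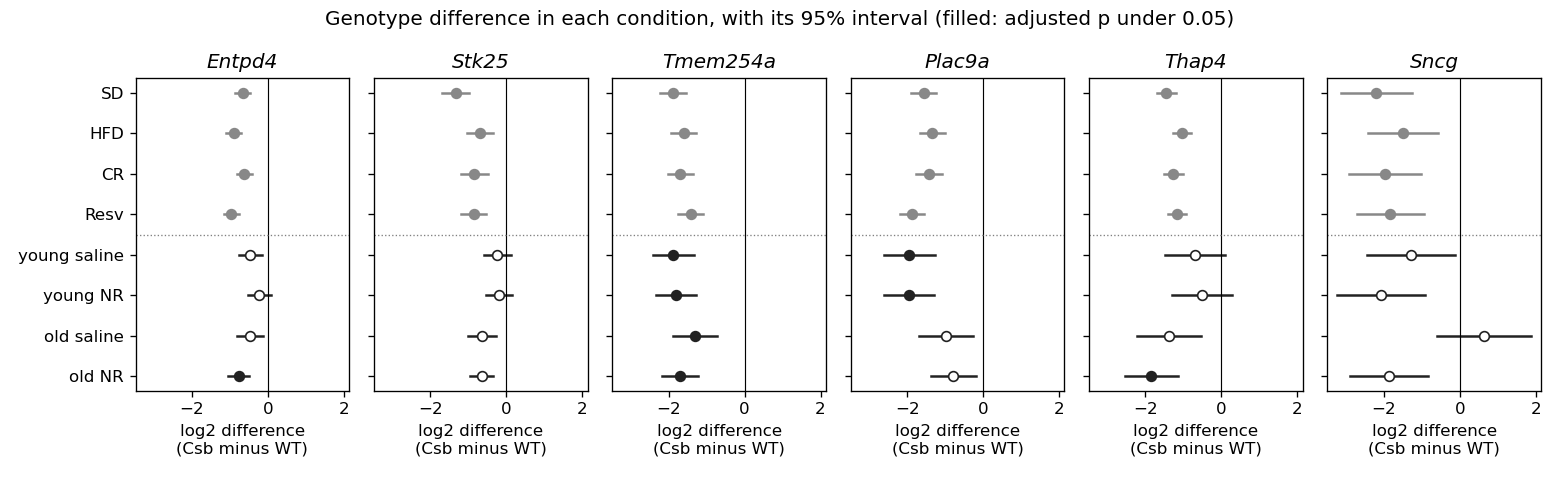
Log2 difference of Csb minus WT for each member in the 4 diets (grey, used for the choice) and the 4 injection conditions (black), with 95% intervals from limma and filled points where the adjusted p was under 0.05. All fitted differences are negative except that of Sncg in old saline mice, at 0.64. Those of Plac9a, and of Sncg after NR, are not exact because Csb arrays did not detect them. Those of Sncg on SD, on HFD and after saline are not exact either, because some arrays did not detect it.

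Sncg after saline was the exception in direction. The old Csb saline arrays stood at 5.62, 5.77 and 6.27 and the old WT saline arrays at 5.87, 5.32 and 4.53, a fitted log2 difference of 0.64 (SE 0.60, adjusted p = 0.681 by limma), with 2 of 3 Csb and 1 of 3 WT arrays detected. The young Csb saline arrays stood at 5.90, 5.19 and 4.98 and the young WT saline arrays at 8.01, 6.33, 6.38 and 5.81. All 3 old WT saline arrays were thus as low as Csb arrays. In the same 3 arrays Ncoa4 stood at 7.36, 7.61 and 7.74, against 6.94 to 7.45 on the 6 Csb saline arrays and 9.19 to 9.58 on the young WT saline arrays. Entpd4 (11.99 to 12.34), Stk25 (9.38 to 9.80), Tmem254a (8.92 to 9.58) and Thap4 (9.10 to 9.63) were at WT levels on these arrays. Plac9a was split, at 6.81, 6.44 and 5.60, the last (replicate 3) undetected and inside the Csb range. In old WT mice Ncoa4 was called higher after NR than after saline (log2 difference 2.12, SE 0.27, adjusted p = 7.92e-05), and Sncg, detected on 1 of 3 saline and 4 of 5 NR arrays, was not (adjusted p = 0.536).

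Replicate 2 of young Csb NR was the converse case. Entpd4 (12.55), Stk25 (9.62), Thap4 (9.28) and Ncoa4 (8.91) were on the WT side of the midpoint between the genotype means of the arm, and Tmem254a (8.22), Plac9a (5.66) and Sncg (5.88) were on the Csb side. Counted over the injection arm, the midpoint was crossed by 0 of 29 arrays for Tmem254a. It was crossed by 1 of 13 Csb and 0 of 16 WT arrays for Entpd4, and by 0 and 3 for Plac9a. For Thap4 it was crossed by 2 Csb and 2 WT arrays, for Stk25 by 2 and 3, and for Sncg by 1 and 5. In the diet arm no array crossed it for 5 of the members, and 2 of 25 Csb and 3 of 17 WT arrays crossed it for Sncg. The choice used these diet values, and the share of all probes without a crossing was not counted in either arm, so these counts are a description. The labels were kept as given.

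**Figure D3:**
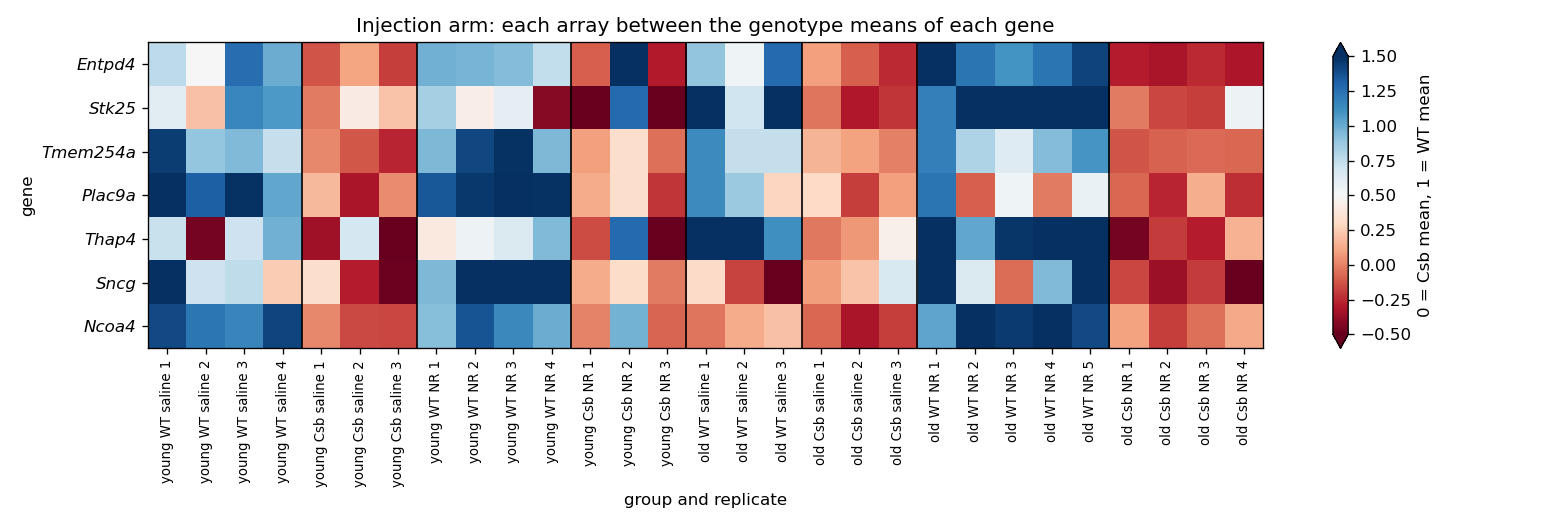
Each array of the injection arm (columns, by group and replicate) for the 6 members and Ncoa4 (rows), on a scale where 0 is the mean of the 4 Csb group means and 1 that of the 4 WT group means. Young Csb NR replicate 2 is blue for Entpd4, Stk25, Thap4 and Ncoa4, and the 3 old WT saline arrays are at the Csb level for Sncg and Ncoa4.

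Stk25 and Sncg are each read by a second probe that is not a member. The second Stk25 probe, ILMN_1223819, gave log2 differences of -1.14 on SD, -0.79 on HFD, -0.73 on CR and -0.64 on Resv, the same direction as the first. In old NR mice its Csb arrays stood at 8.68, 8.59, 9.35 and 9.41 and its WT arrays at 9.52, 9.66, 9.88, 10.06 and 9.73, without overlap (log2 difference -0.76, SE 0.18, adjusted p = 0.151 by limma). Within groups, deviations of the 2 Stk25 probes from their group means correlated at 0.84 over 71 arrays, which is a description of arrays that share groups.

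The second Sncg probe, ILMN_2598478, went the other way. Its Csb means were higher than its WT means on all 4 diets, by 0.43 on SD (SE 0.47), 0.90 on HFD (SE 0.46), 0.34 on CR (SE 0.47) and 0.96 on Resv (SE 0.44), and none was called. On SD its Csb arrays stood at 11.54, 11.60, 12.77, 9.99, 11.10 and 10.92 and its WT arrays at 9.83, 11.42, 10.96 and 11.36. Among the Csb diet arrays, the highest by the first probe was also highest by the second (Csb SD replicate 3), and the lowest WT diet array by both was WT HFD replicate 1, at 6.54 and 8.13. Deviations of both Sncg probes from their group means correlated at 0.87 over 71 arrays.

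The difference between the Sncg probes within an array, a measure chosen after the values were seen and given with no test, did not overlap between the genotypes of the diet arm. Each probe alone overlapped there on SD and HFD. First minus second, in log2 units, it ranged from -5.16 to -3.86 (median -4.51) on the 25 Csb diet arrays and from -2.38 to -1.49 (median -1.90) on the 17 WT diet arrays. In the injection arm the ranges overlapped, at -5.89 to -3.65 on Csb and -5.51 to -2.09 on WT arrays. The first probe was not detected on any Csb NR array, so the Csb NR values hold a first probe below detection: -4.82 ± 1.02 (SD, n = 3) in young and -5.33 ± 0.40 (SD, n = 4) in old mice. The WT NR values were -2.78 ± 0.45 (SD, n = 4) in young and -2.93 ± 0.43 (SD, n = 5) in old mice. After saline the old WT arrays, at -4.85 ± 0.89 (SD, n = 3), lay near the old Csb arrays, at -5.22 ± 0.51 (SD, n = 3). In young saline mice Csb had -5.11 ± 0.59 (SD, n = 3) and WT had -2.67 ± 0.42 (SD, n = 4). For the Stk25 probes the difference ran from -0.35 to 0.42 on Csb and from -0.33 to 0.30 on WT injection arrays. On the diet arrays the ratio shows that the 2 Sncg probes differed unequally between genotypes and does not show which of them followed the transcript.

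**Figure D4:**
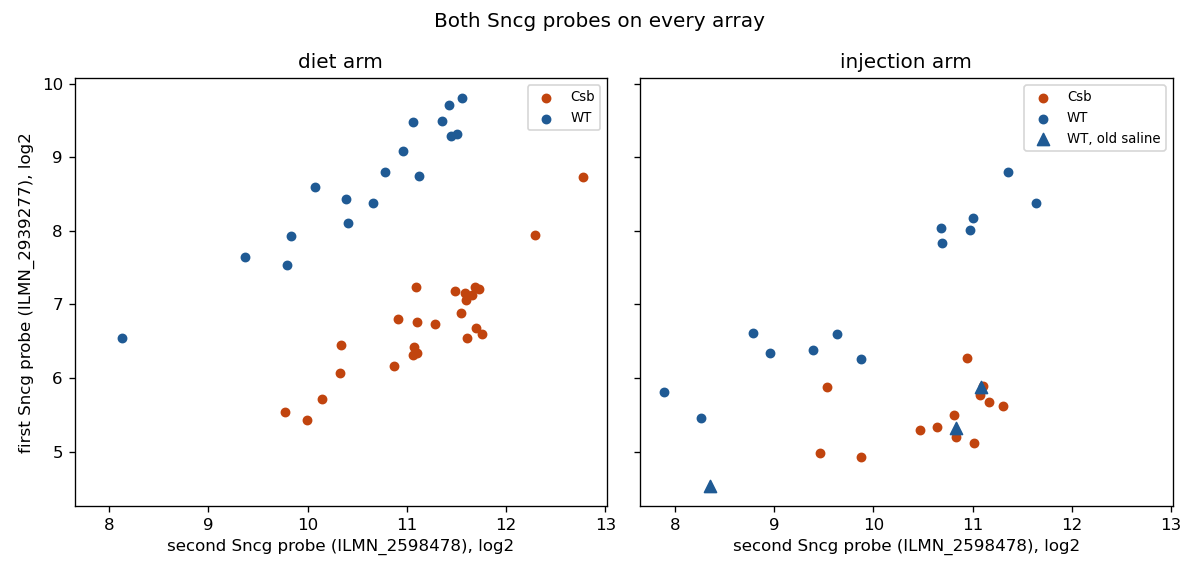
Log2 normalized intensity of the first (vertical) against the second (horizontal) Sncg probe on every array of the diet arm (left) and injection arm (right), with Csb in red and WT in blue, and triangles for old WT saline. Both probes vary together, and the diet arrays form 1 band per genotype, with probe differences of -5.16 to -3.86 in Csb and -2.38 to -1.49 in WT.

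Few of the members were called for diet within a genotype. These comparisons use the same diet arrays as the choice, which favoured probes whose genotype difference keeps its sign on every diet. The p-values and counts are therefore given as a description. In Csb, HFD against SD raised Stk25 by 0.50 (SE 0.15, adjusted p = 0.0238 by limma) and Thap4 by 0.47 (SE 0.11, adjusted p = 0.00342), 2 of 6 members against 17.1% of all probes. The 7 Thap4 values on HFD ran from 8.86 through a median of 8.98 to 9.08, all above the 6 SD arrays, whose highest was 8.64. For Stk25 the HFD arrays stood at 9.23, 9.50, 9.36, 9.54, 9.51, 9.46 and 9.57, and SD replicate 4, at 9.66, was above them. The Stk25 call was lost without Csb SD replicate 3 or 6, which left 1 member called. Summary levels of other cells moved between these groups: the mean of the granule neuron probes was 10.53 in Csb SD and 12.32 in Csb HFD, and that of the choroid plexus probes 7.78 and 9.26. Their part in the result was not tested.

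In the other diet comparisons 0 of 6 members were called. The background of such calls was 0.0873% for CR in Csb, 13.5% for Resv in Csb, 0.0806% for HFD in WT, 2.18% for CR in WT and 0% for Resv in WT. At an unadjusted p under 0.05 there were 1 member for CR in Csb (8.98% of all probes), 3 for Resv in Csb (29.6%), 1 for HFD in WT (14.6%), 0 for CR in WT (15.1%) and 0 for Resv in WT (6.95%). For Resv in Csb, Stk25 was at 0.45 (SE 0.16, adjusted p = 0.0503), and 1 member was called when any of 9 single arrays was left out: Csb CR replicates 3, 4, 5 and 6, Csb Resv replicate 6, Csb SD replicates 4 and 5, WT HFD replicate 2 and WT SD replicate 1. Among the 4 WT diet groups the means of Thap4 spanned 9.92 to 10.03 and those of Entpd4 12.58 to 12.74, so neighbours in that order differed by less than their spread.

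NR against saline called 0 of 6 members in each of 4 groups. The background of such calls was 0% in young Csb, 0% in young WT, 0% in old Csb and 0.0717% in old WT mice. At an unadjusted p under 0.05 there were 0 members in young Csb (0.581% of all probes), 1 in young WT (6.47%), 0 in old Csb (10.7%) and 1 in old WT mice (7.42%). The interaction of genotype and NR called 0 of 6 in young (background 0%) and in old mice (background 0.0358%), with 0 and 1 members at an unadjusted p under 0.05 (2.06% and 6.26% of all probes).

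Between young and old WT NR mice 2 of 6 members were called, against 14.2% of all probes. Plac9a fell with age by 1.44 on the fitted log2 scale (SE 0.29, adjusted p = 0.00301 by limma), with the arrays given above apart between 4 and 18 months, and Stk25 was higher in old mice by 0.51 (SE 0.15, adjusted p = 0.0226). The Stk25 call was lost without old WT NR replicate 4 or young WT NR replicate 4, which left 1 of 6 called. Thap4 was 0.93 higher (SE 0.34, adjusted p = 0.0648), with all old WT NR arrays (8.998 to 9.74) above all young ones (8.31 to 8.91). In WT saline mice (background 1.3%), Csb saline mice (background 3.28%) and Csb NR mice (background 0.0143%) 0 of 6 were called. At an unadjusted p under 0.05 there were 3 members in WT saline (14.9% of all probes), 0 in Csb saline (22% of all probes) and 1 in Csb NR mice (3.56% of all probes).

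Over the 16 group means, centred within each arm, correlations between members ran from 0.64 (Thap4 with Sncg) to 0.94 (Tmem254a with Plac9a), and the shared genotype difference enters each of them. Within groups, over 71 arrays, deviations of Tmem254a and Sncg correlated at 0.69, Entpd4 and Thap4 at 0.52, Plac9a and Sncg at 0.40 and Tmem254a and Plac9a at 0.34. For the chromosome 1 neighbours Stk25 and Thap4 the value was 0.28, with 0.07 in the diet arm and 0.53 in the injection arm. Stk25 and Sncg varied in opposite directions, at -0.43. All of these share arrays and are given with no test.

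Among 13737 probes kept in both arms, the 2 with the pattern most like each member over the 16 group means were taken, leaving out the members. For Tmem254a these were Ncoa4 (r = 0.88) and Rell1 (0.85), and for Sncg Ncoa4 (0.87) and Galm (0.84). For Stk25 they were its own second probe (0.96) and Zfx (0.96), and for Thap4 the second Stk25 probe (0.92) and Rell1 (0.91). For Entpd4 they were Col9a2 (0.90) and Rnf4 (0.89), and for Plac9a Cdca4 (0.85) and Col9a2 (0.84). Of these genes other than Stk25, only Ncoa4 shares a chromosome with the member it resembles.

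Genes next to the members were described in the diet arm, with the comparisons that the choice used. Only 7 of 14883 probes (0.047%) met the rule, the 6 members and Ncoa4. With the members' genes left out, no neighbour other than Ncoa4 could have counted, so the counts of 0 below carry no conclusion. Within 10 protein-coding genes on either side, 0 of 7 tested probes near Plac9a and Tmem254a, 0 of 6 near Sncg, 0 of 9 near Entpd4 and 0 of 13 near Stk25 and Thap4 were called lower on all 4 diets. Averaged over the diets, the log2 differences near Plac9a and Tmem254a ran from -0.05 (Rps24) to 0.23 (Anxa11), and near Stk25 and Thap4 from -0.22 (Neu4) to 0.20 (Atg4b). Near Sncg they ran from -0.85 (Glud1) to 0.28 (Mmrn2), and near Entpd4 from -0.93 (Tnfrsf10b) to 0.68 (Nefm). The average of Tnfrsf10b was thus lower than that of Entpd4 itself. The members' own averages were -1.65 for Tmem254a, -1.55 for Plac9a, -1.87 for Sncg, -0.79 for Entpd4, -0.93 for Stk25 and -1.23 for Thap4, and the median of all 14883 probes was -0.01.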

How the data were processed

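Per the file headers, the authors deposited an average intensity per probe and array, not normalized, and beside it a detection p-value. The submitters' processing notes list GenomeStudio 1.9.0, and what else was done is not given in the sources at hand. A second deposited table holds a score per probe and array, which matched the z-score of log10 intensity within each array (tolerance 1e-09), and served as an alternative. Genes were named from the platform annotation (14025 of the 14883 probes tested in the diet arm have a gene).

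Each arm was normalized alone with neqc of limma 3.58.1 in R 4.3.3 (normexp background, quantile normalization, offset 16, log2). Probes with a detection p under 0.01 on at least 4 (diet) or 3 (injection) arrays were kept, 14883 and 13948. All groups of an arm entered 1 limma fit (lmFit, eBayes), and a call is a Benjamini-Hochberg adjusted p under 0.05 over all kept probes, two-sided. No file gives a chip or scan, so no batch could be fitted. The pipeline was tested on simulated data. Where a group never detected a probe, the folds take, on each of its arrays, the lowest level of any detected probe, or the probe's own level where that is higher. The other group enters at its mean level, undetected arrays included. The folds compare group means and leave out the spread among arrays.

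The members, marker lists and alternatives were chosen with earlier results of these data known. Named besides the 6 members are the 2 probes most like each, the 2 just outside the threshold, and Ncoa4, the second probes and extremes of neighbouring genes, which were singled out after their values were seen. The alternatives were no background correction, a z-score per array, no filter on dim probes, array weights, replicate number as a block, array background or highest intensity (brightness) as a covariate, the deposited scores, the compared groups alone, all 71 arrays together, and leaving out each array. The labels state no pairing of arrays by replicate number. Deviations of same-numbered Csb and WT arrays correlated positively for every pair in old saline mice alone. Those 3 values, 0.13 to 0.21, are weak and do not establish pairs.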

Additional observations from a re-analysis of the deposited data

Results flagged for a closer look

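In 72 sets of arrays (6 members in 12 groups of 4 to 7 arrays), 2 held an array far from the others of its group, where chance gives about 1 in 20. Groups of 3 arrays, young Csb NR among them, were not examined. Tmem254a on WT HFD replicate 3 stood at 10.22, and the other 3 arrays of that group at 9.74 to 9.77. Thap4 on Csb CR replicate 1 stood at 8.29, and the other 5 arrays at 8.74 to 8.99. Both arrays stayed on their own genotype's side.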

How the results depend on the processing

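All values below are counts of the 6 members called, and the saline counts include Tmem254a, which was chosen on them. The counts of the injection arm include Plac9a, which passed the filter through WT arrays alone. The count on all 4 diets was 3 in place of 6 with the background covariate, the brightness covariate or the compared groups alone, and 4 to 6 without single arrays. For NR averaged over ages it was 2 in place of 4 with no filter, with the replicate block, with either covariate and with the compared groups alone, and 2 to 6 without single arrays. For saline averaged over ages it was 2 to 5 without single arrays, against 3. In young NR mice it was 1 in place of 2 with no filter, the background covariate or the compared groups alone, 4 with array weights, and 0 to 2 without single arrays (0 without young Csb NR replicate 3, 1 without young Csb NR replicate 1 or young WT NR replicates 2, 3 or 4). In young saline mice it was 1 to 2 without single arrays, against 2 (1 without young Csb saline replicate 2 or 3). In old saline mice it was 0 in place of 1 with no filter, either covariate or the compared groups alone, 3 with array weights, 2 with all 71 arrays together, and 0 to 2 without single arrays (0 without old Csb saline replicate 2 or 3 or old WT saline replicate 1, 2 or 3, 2 without young Csb NR replicate 2). In old NR mice it was 5 in place of 3 with array weights, 1 with the replicate block, 6 with all 71 arrays together, and 1 to 4 without single arrays (1 without old Csb NR replicate 1 or 2). HFD in Csb gave 1 in place of 2 with either covariate, the compared groups alone or all 71 arrays, and 1 to 2 without single arrays. Resv in Csb gave 2 in place of 0 with array weights, 1 with the deposited scores and with all 71 arrays, and 0 to 1 without single arrays. Array weights gave 2 in place of 0 for age in WT saline mice and 1 in place of 0 for genotype and age after NR. Age in WT NR mice gave 4 in place of 2 with array weights, 0 with the brightness covariate, 1 with the compared groups alone, and 1 to 3 without single arrays. The causes were not tested.

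Of 2834 single log2 differences recomputed under 81 alternatives (71 that each left out 1 array), 2647 kept their side of the threshold and their direction, 161 lost the call, 26 gained it and 0 changed direction. They include the diet differences that the choice required and values that were never called, so the total is no measure of stability. The call of Entpd4 averaged over NR groups was lost in 25 of 29 fits without 1 array, and that of Sncg on CR in 25 of 42. The labels state no pairing by replicate number, and outside old saline mice the correlations of same-numbered deviations ran from -0.59 to 0.57. In old saline mice the replicate block kept the count at 1, and it moved no count by over 1.5 times other than those given. Plac9a in Csb and Sncg in Csb NR mice lie below detection, so the size of their differences is not exact. Sncg was also undetected on some arrays of the SD, HFD and saline groups, with the same limit.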
